A study of Mus musculus with 84 samples.

Results

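Nuclear RNA of frontal cortex neurons was compared between 4 mice sampled 7 days after DOI and 4 vehicle mice, to ask which genes differed in all 4 treated mice and which in only some. No gene passed edgeR's test of the group means after a filter on low counts, while DESeq2 called 796. Of 17941 genes tested, 1050 (5.85%) were above or below every vehicle mouse in all 4 mice at 7 days, among them Nr4a2, Per1 and Tnfrsf25 on the high side and Deptor, Il15ra and Dpp4 on the low side. A larger number, 3183 (17.7%), lay outside the vehicle range in mice 2 and 4 and inside it in mice 1 and 3. Znrf3, the gene of a ubiquitin ligase that removes Wnt receptors, shows that second pattern. It was at 10.8 and 11.3 CPM (counts scaled to library size) in mice 1 and 3, at 115 and 100.0 CPM in mice 2 and 4, and at 8.64 to 13.1 CPM in the vehicle mice.

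The mice were 129S6/SvEvTac of 12 weeks, injected with vehicle or with DOI (2,5-dimethoxy-4-iodoamphetamine). Neuronal nuclei were sorted from frontal cortex by the NeuN protein. Each mouse gave 2 RNA libraries, so the comparison holds 16 of the 32 RNA libraries and of the 84 samples in all, which also include H3K27ac chromatin and input. The vehicle label carries no time after injection. Mice at 24 h and 48 h after DOI, of the same strain and age, entered the fits to estimate the spread. The libraries of the mouse labelled number 2 at 7 days carry another mouse number in their file headers, as do those of 1 mouse at 24 h and 1 at 48 h, and the number of the label was used. The labels name no batch or date, so the order in which mice were processed could not be set beside the results.

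DOI is a psychedelic phenethylamine that activates serotonin 2A receptors, which couple to Gq and phospholipase C and are dense on cortical pyramidal neurons. Strong activation of such neurons switches on immediate early genes, among them the NR4A nuclear receptors and Per1, through CREB and other factors that bind near their start sites. RNA of sorted nuclei holds newly made and retained transcripts, so its levels follow transcription and processing more closely than whole-cell RNA does.

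Over both libraries, a vehicle mouse had 9151680 to 11517452 counts and a mouse at 7 days 6972577 to 12354785, with the smallest total in mouse 4. A level of 3 counts, below which a value cannot be told from 0, was 0.243 to 0.430 CPM over the 8 mice, for counting error only. Rbfox3, which encodes NeuN, was at 46.3 to 68.1 CPM in vehicle mice and at 59.6, 112, 59.3 and 84.0 CPM in mice 1 to 4 at 7 days. Endothelial markers summed to 1.51 to 2.06 CPM in vehicle and to 4.15, 5.72, 3.62 and 0.979 CPM in mice 1 to 4 at 7 days, with Cldn5 at 0 counts in 7 of the 8 mice, and none of the 4 ependymal and choroid plexus markers passed the filter on low counts. Astrocyte markers were present, at a summed 781 to 849 CPM in vehicle and 589 to 818 CPM at 7 days, most of it from the glutamate transporter gene Slc1a2, while Gfap had 0 counts in 3 of the 4 mice at 7 days. The sum hides a split: of 7 tested astrocyte markers, 4 were below and 2 above every vehicle mouse in mouse 2, and likewise 4 and 2 in mouse 4, with medians of -0.42 and -0.99 log2 units from vehicle in these mice against -0.00 and -0.07 in mice 1 and 3. Slc1a2 was at 483 to 532 CPM in vehicle and at 439, 623, 307 and 551 CPM at 7 days, the glycolytic enzyme gene Aldoc at 114 to 165 CPM and at 149, 68.7, 114 and 53.6 CPM, the transporter gene Slc1a3 at 70.9 to 85.4 CPM and at 116, 46.6, 83.9 and 39.0 CPM, and the connexin gene Gja1 at 27.9 to 49.9 CPM and at 40.8, 22.1, 24.9 and 11.8 CPM. Of the 7, only Aldoc in mouse 4 was called against vehicle (edgeR adjusted p = 0.0169). Oligodendrocyte markers summed to 165 to 367 CPM in vehicle and to 375, 243, 221 and 206 CPM at 7 days. The part of these cells in the results was not tested.

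The group comparison used edgeR's quasi-likelihood test, with p adjusted by the Benjamini-Hochberg method over all genes. No gene had an adjusted p below 0.05 (0%). The smallest adjusted p was 0.0960, and at an unadjusted p below 0.05 there were 3012 genes. DESeq2 called 796 genes, 92.2% of them higher at 7 days, and limma's voom with quality weights called 0. Without mouse 1 at 7 days the edgeR count was 1342, without mouse 3 it was 1160, and without mouse 2 or without mouse 4 it was 0. The spread between mice, as the biological coefficient of variation, was 21.5% in the vehicle group and 50.4% at 7 days.

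Each mouse at 7 days was then set against the 4 vehicle mice, with the spread taken from the 12 mice of the vehicle, 24 h and 48 h groups, so these tests ask about that mouse and not about the treatment. Mouse 1 had 0 genes called (0%, smallest adjusted p 0.512, 461 genes at an unadjusted p below 0.05), and mouse 3 had 0 (0%, 614 genes at an unadjusted p below 0.05). In DESeq2 these 2 counts were 3 and 0. Mouse 2 had 2863 genes called (16%), 1748 higher (9.74%) and 1115 lower (6.21%). Mouse 4 had 3714 (20.7%), 2108 higher (11.7%) and 1606 lower (8.95%). Each vehicle mouse, measured the same way against the other 3, had 0 genes called, and at an unadjusted p below 0.05 vehicle mouse 1 had 667 genes, mouse 2 had 329, mouse 3 had 199 and mouse 4 had 195. The counts of mice 1 and 3 at 7 days at that unadjusted p lay above those of vehicle mice 2, 3 and 4 and below that of vehicle mouse 1. A count of 0 called genes in 1 mouse does not show that the mouse equals vehicle.

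No gene was called in all 4 mice. Mice 2 and 4 shared 2052 called genes, 71.7% of those of mouse 2 and 55.3% of those of mouse 4. Of these, 1311 were higher in both, 741 were lower in both (7.31% and 4.13% of all genes) and 0 had opposite directions. Both mice are set against the same vehicle mice, which adds to this overlap. A further 811 genes were called in mouse 2 and not in mouse 4, and 1662 in mouse 4 and not in mouse 2, where the difference between the mice themselves is the test that follows.

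The 4 mice at 7 days differed from each other in 1904 genes (10.6%) by edgeR's F test with 3 degrees of freedom. Of the 6 pairs, mouse 2 differed from mouse 1 in 892 genes (4.97%) and from mouse 3 in 1199 (6.68%), and mouse 4 differed from mouse 1 in 1657 (9.24%) and from mouse 3 in 1601 (8.92%). Mice 1 and 3 differed in 0 genes (0%, 471 at an unadjusted p below 0.05), and mice 2 and 4 differed in 0 genes (0%, 866 at an unadjusted p below 0.05). With library 1 of each mouse alone 1600 genes differed among the mice, and with library 2 alone 1548. The count was 3527 with only the vehicle and 7 days mice in the fit and 3268 by DESeq2's likelihood ratio test, and it was 1212 without mouse 1, 1518 without mouse 2, 1006 without mouse 3 and 977 without mouse 4. The 2 libraries of mouse 2 differed more than those of the other 7 mice of this comparison, with a chi-square per degree of freedom of 2.85 against 1.40 to 1.58. Among the mice that only entered the fits, mouse 2 at 24 h had 2.57 and mouse 3 at 48 h had 2.84. When the 2 libraries were taken as units, the mouse accounted for a difference in 14060 of 16225 genes at 7 days (86.7%) and in 9488 of 15487 genes in the vehicle group (61.3%). Each such test measures mice against their own technical libraries and says nothing of treatment.

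The distance of a gene from the vehicle mean, in log2 CPM, had a standard deviation over genes of 0.529 and 0.532 for mice 1 and 3, and of 1.16 and 1.27 for mice 2 and 4. The share of genes outside the range of the 4 vehicle mice was 40.7%, 72.9%, 47.1% and 75.5% in mice 1 to 4. The plot of these distances shows a narrow peak for mice 1 and 3 and a broad one for mice 2 and 4.

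**Figure D1:**
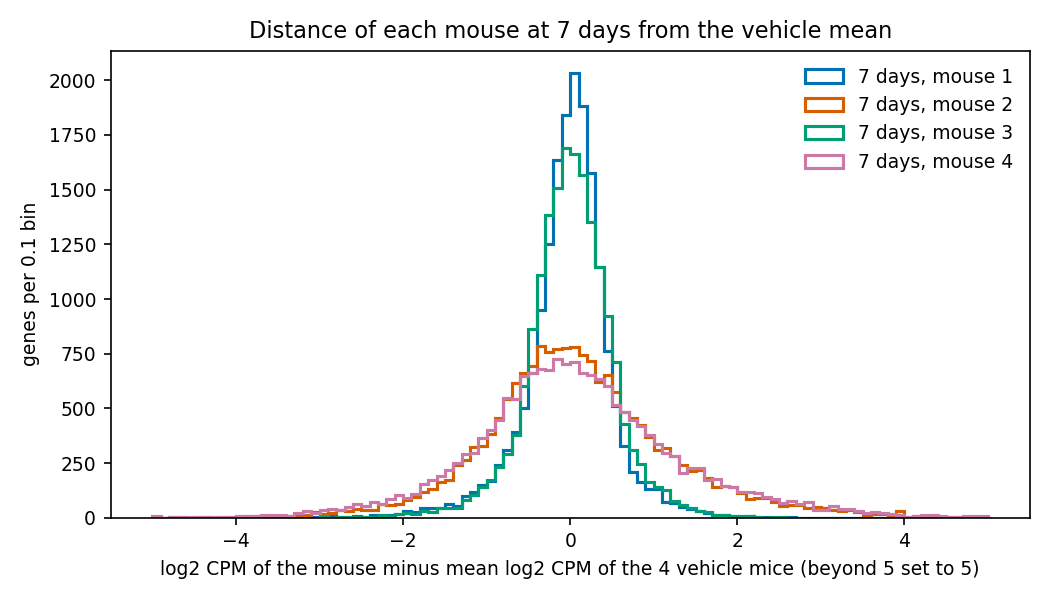
Number of genes (vertical axis, per 0.1 bin) by log2 CPM of a mouse at 7 days minus the mean log2 CPM of the 4 vehicle mice (horizontal axis), 17941 genes, a line for each mouse, with distances beyond 5 drawn at 5. Mice 1 and 3 have standard deviations of 0.529 and 0.532, and mice 2 and 4 of 1.16 and 1.27.

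Genes were next sorted by which mice at 7 days lay outside the vehicle range. In 505 genes all 4 mice were above every vehicle mouse (2.81%) and in 545 all 4 were below (3.04%). The most frequent set was mice 2 and 4 alone, with 1754 genes above and 1429 below. Mice 2, 3 and 4 without mouse 1 held 1449 genes, mouse 4 alone 1067, and mice 1, 2 and 4 without mouse 3 1012. Sets of 2 mice other than mice 2 and 4 held 200 to 351 genes each. In 5803 genes (32.3%) mice lay on both sides of the vehicle range, and in 1078 (6.01%) no mouse lay outside it. A margin of at least 1.2-fold between the groups left 204 of the 1050 genes without overlap, so most of these gaps were narrow. Leaving out mouse 1 or mouse 3 at 7 days raised the 1050 to 2981 or 2588, and leaving out vehicle mouse 2 or 3 raised it to 1678 or 1608. Of the 1050 genes, 714 passed 0.05 in the group comparison before adjustment and 65 also differed among the 4 mice.

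**Figure D2:**
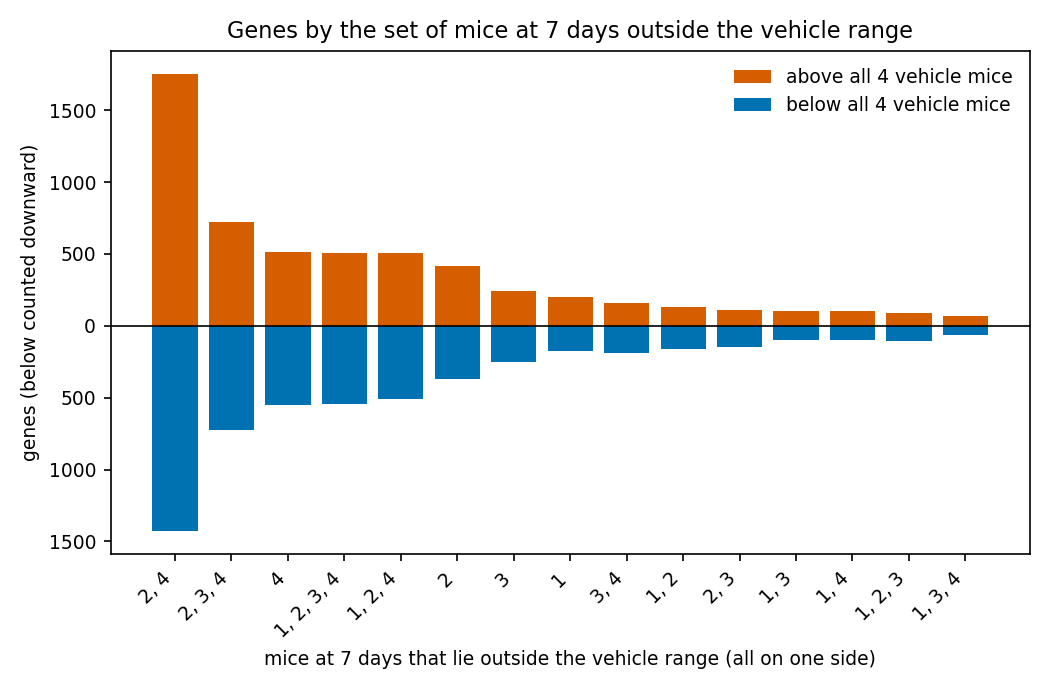
Number of genes above (upward bars) and below (downward bars) all 4 vehicle mice, by the set of mice at 7 days that lie outside the vehicle range on the same side (horizontal axis). Mice 2 and 4 alone make the tallest bars, with 1754 and 1429 genes, and all 4 mice have 505 and 545.

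Among the genes above vehicle in all 4 mice, Nr4a2 lay farthest from the vehicle mean in its nearest mouse. It encodes an orphan nuclear receptor that is an immediate early gene and also marks claustral and deep cortical neurons (chromosome 2, 57106830 to 57124003, GRCm38). Its level was 2.17, 43.4, 28.7 and 30.7 CPM in vehicle mice 1 to 4 and 87.3, 83.1, 97.4 and 78.8 CPM in mice 1 to 4 at 7 days. The 4 treated mice were close together and well above the highest vehicle mouse, while vehicle mouse 1 was far below the other 3. The log2 fold change was 1.73 (SE 0.75, adjusted p = 0.254 in edgeR and 0.253 in DESeq2), and edgeR with no filter on low counts called it (adjusted p = 0.000541). Per1, a repressor of the circadian clock that is also induced by activity (chromosome 11, 69095217 to 69109960), was at 6.23, 10.3, 11.8 and 11.5 CPM in vehicle and at 16.7, 42.2, 19.1 and 25.0 CPM at 7 days (log2 fold change 1.37, SE 0.32, adjusted p = 0.0960 in edgeR). All 4 mice were above vehicle, with mouse 2 the highest. Its paralogue Per2 was at 31.6, 72.9, 67.0 and 54.1 CPM and at 89.2, 100, 121 and 87.9 CPM, and again no mouse overlapped (log2 fold change 0.82, SE 0.21, adjusted p = 0.0993 in edgeR).

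The promoters of Nr4a2, Per1 and Gpr6 are shown because these genes were above vehicle in all 4 mice and hold sites of the kind that CREB or clock factors read. Each is the 250 bases before a start site in RefSeq, 5′ to 3′ on the strand of the gene. Capitals mark TGACG on either strand (the core of a cAMP response element), TGACGTCA (the full element, which contains that core) and CACGTG (an E-box). Both Per1 start sites lie inside the annotated span of the gene.
Nr4a2 promoter, GRCm38.p6 chr2:57124004-57124253, minus strand: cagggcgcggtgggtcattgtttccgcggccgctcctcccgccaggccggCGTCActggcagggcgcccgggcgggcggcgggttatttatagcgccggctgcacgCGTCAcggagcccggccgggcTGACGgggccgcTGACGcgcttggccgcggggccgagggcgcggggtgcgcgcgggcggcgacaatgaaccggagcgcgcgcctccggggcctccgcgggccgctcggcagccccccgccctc
Per1 promoter, GRCm38.p6 chr11:69098699-69098948, plus strand: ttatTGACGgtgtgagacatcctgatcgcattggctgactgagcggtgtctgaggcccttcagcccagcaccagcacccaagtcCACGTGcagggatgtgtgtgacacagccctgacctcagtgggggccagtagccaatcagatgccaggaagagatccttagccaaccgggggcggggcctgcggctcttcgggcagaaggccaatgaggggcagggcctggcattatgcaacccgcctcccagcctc
Per1 promoter, GRCm38.p6 chr11:69099902-69100151, plus strand: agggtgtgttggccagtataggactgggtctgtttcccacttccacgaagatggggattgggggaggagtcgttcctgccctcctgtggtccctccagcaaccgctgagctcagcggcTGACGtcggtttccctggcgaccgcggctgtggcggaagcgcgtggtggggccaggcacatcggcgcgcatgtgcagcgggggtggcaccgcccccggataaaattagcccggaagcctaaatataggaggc
Gpr6 promoter, GRCm38.p6 chr10:41072291-41072540, minus strand: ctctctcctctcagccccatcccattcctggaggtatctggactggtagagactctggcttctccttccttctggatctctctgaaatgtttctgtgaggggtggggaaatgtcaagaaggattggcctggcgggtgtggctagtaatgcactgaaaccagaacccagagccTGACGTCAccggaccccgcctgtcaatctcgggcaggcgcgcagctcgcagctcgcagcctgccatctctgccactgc
TGACG was found in the windows of 4 of the 6 named genes above vehicle that have a promoter in the table (Gpr6, Nr4a2, Per1 and Tnfrsf25) and in 1 of the 6 below (Il15ra). Over all 32851 promoters of the same length 17.77% hold it, 1.55% hold TGACGTCA, found in Gpr6, and 6.02% hold CACGTG, found in Per1. These are shares of promoters, while the counts above are of genes with a match in any of their windows (Per1 has 2), so the counts and shares are not like for like. A match is a description of the letters only, and the genes shown were chosen after their values were seen.

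Several of the other genes above vehicle in all 4 mice encode receptors. Tnfrsf25, the death receptor for the cytokine TL1A (chromosome 4, 152115934 to 152120119), was at 3.59, 5.69, 6.29 and 5.45 CPM in vehicle and at 10.5, 22.7, 11.1 and 29.2 CPM at 7 days (log2 fold change 1.80, SE 0.38, edgeR adjusted p = 0.0960). All 4 mice were above the highest vehicle mouse, with mice 2 and 4 above mice 1 and 3. Oprk1, the kappa opioid receptor, was at 22.9 to 28.7 CPM in vehicle and at 43.6, 87.0, 45.4 and 67.7 CPM at 7 days. Gpr6, an orphan receptor typical of striatal neurons that project to the external pallidum, was at 3.73 to 8.50 CPM and at 21.3, 70.9, 12.1 and 44.2 CPM. In both genes mouse 2 was highest and mouse 4 next. Gfra1, the co-receptor of the growth factor GDNF, was at 3.40 to 10.1 CPM in vehicle and at 12.7, 14.2, 14.6 and 16.1 CPM at 7 days. Epha6, an ephrin receptor of axon guidance, was at 6.94 to 9.64 CPM and at 16.1, 21.0, 15.4 and 19.2 CPM. In these 2 genes the 4 treated mice lay close to each other. The spans of Gfra1 and Epha6, introns included, overlap genes on the opposite strand. Strand was not used in counting, so reads of overlapping exons could not be told apart by strand. Whether the counted exons overlap was not examined, here or for the genes below. An overlap of spans holds for 43.6% of all genes tested, and for many of the list members named further on.

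The remaining 3 of the 10 genes named above vehicle have other roles. Banp, a DNA-binding protein of the nuclear matrix, was at 50.5, 79.4, 60.3 and 59.8 CPM in vehicle and at 111, 113, 102 and 115 CPM at 7 days (log2 fold change 0.82, SE 0.20, adjusted p = 0.0960 in edgeR). Its 4 treated mice were nearly level, and it too overlaps genes on the opposite strand. Tm6sf2, a membrane protein of lipid export, was at 2.64 to 6.82 CPM and at 10.8, 13.2, 10.5 and 22.2 CPM. Gpt, an alanine aminotransferase, was at 2.36 to 9.44 CPM and at 9.48, 14.7, 9.57 and 23.5 CPM. Its gap was the narrowest, since mouse 1 and vehicle mouse 2 were almost equal.

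Among the genes below vehicle in all 4 mice, Deptor, an inhibitor that binds mTOR (chromosome 15, 55112317 to 55259271), was at 63.4, 53.0, 56.7 and 56.9 CPM in vehicle and at 28.5, 30.1, 33.6 and 18.1 CPM at 7 days (log2 fold change -1.06, SE 0.24, adjusted p = 0.0960 in edgeR). All 4 treated mice were below the lowest vehicle mouse, mouse 4 the farthest. Il15ra, the interleukin 15 receptor alpha chain (chromosome 2, 11705290 to 11734317), was at 44.6, 37.6, 34.6 and 42.4 CPM and at 18.9, 18.4, 25.0 and 15.0 CPM (log2 fold change -1.04, SE 0.20, adjusted p = 0.0960 in edgeR). Mouse 3 was the nearest to vehicle. Dpp4, a peptidase that cleaves neuropeptides and incretins, was at 11.9 to 17.1 CPM in vehicle and at 7.71, 6.84, 8.41 and 7.70 CPM at 7 days. Its treated mice lay within a narrow band. Deptor and Dpp4 overlap genes on the opposite strand. Ghr, the growth hormone receptor, was at 13.7 to 23.6 CPM and at 6.01, 7.96, 8.52 and 11.1 CPM.

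The other 6 genes named on the low side differ in role. Nek7, a mitotic kinase that also acts in the NLRP3 inflammasome, overlaps such a gene too and was at 36.8 to 48.4 CPM in vehicle and at 26.0, 18.6, 22.1 and 10.2 CPM at 7 days. Unc13c, a Munc13 protein that primes synaptic vesicles, was at 19.8 to 25.0 CPM and at 12.4, 12.9, 15.1 and 7.42 CPM. In both genes mouse 4 was the lowest. Nadk2, the mitochondrial NAD kinase, was at 21.5 to 22.9 CPM in vehicle and at 14.3, 8.96, 14.6 and 8.96 CPM at 7 days. Tipin, a partner of the fork protein Timeless, was at 38.3 to 49.8 CPM and at 26.3, 26.1, 22.5 and 29.4 CPM. The membrane protein genes Tmem196 and Tmem143 completed the list. Tmem196 was at 60.5 to 94.4 CPM and at 48.6, 38.1, 40.7 and 38.6 CPM, and Tmem143 was at 24.4 to 43.6 CPM and at 17.6, 11.0, 18.7 and 20.0 CPM.

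The call for the genes named as outside the vehicle range in all 4 mice depended on the filter and the tool. Of the 13 above vehicle by any part of the naming rule, edgeR called 0 with the filter on low counts and 12 with no filter, and DESeq2 called 10. Of the 10 below, these counts were 0, 5 and 7. Over all genes, edgeR with no filter called 958 of 36503 and DESeq2 called 796 of 17941. The named genes were chosen by their distance from vehicle or their p in these same mice, so these counts add no support. Of the 13, Gm37219 was at 0.117 CPM in mouse 3, under the level of 3 counts. With no filter the edgeR adjusted p was 0.000804 for Per1, 0.000277 for Tnfrsf25 and 0.00427 for Deptor, and DESeq2 gave 0.00509, 0.0019 and 0.00478. These alternatives also called genes that left the vehicle range in mice 2 and 4 alone. For Scaf1 the adjusted p was 2.64e-09 in edgeR with no filter and 0.0128 in DESeq2, and for Znrf3 2.1e-09 and 0.00894. Nat14, below vehicle in the same 2 mice, was called by neither (0.382 and 0.675). A call by them thus does not show a change in all 4 mice.

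**Figure D3:**
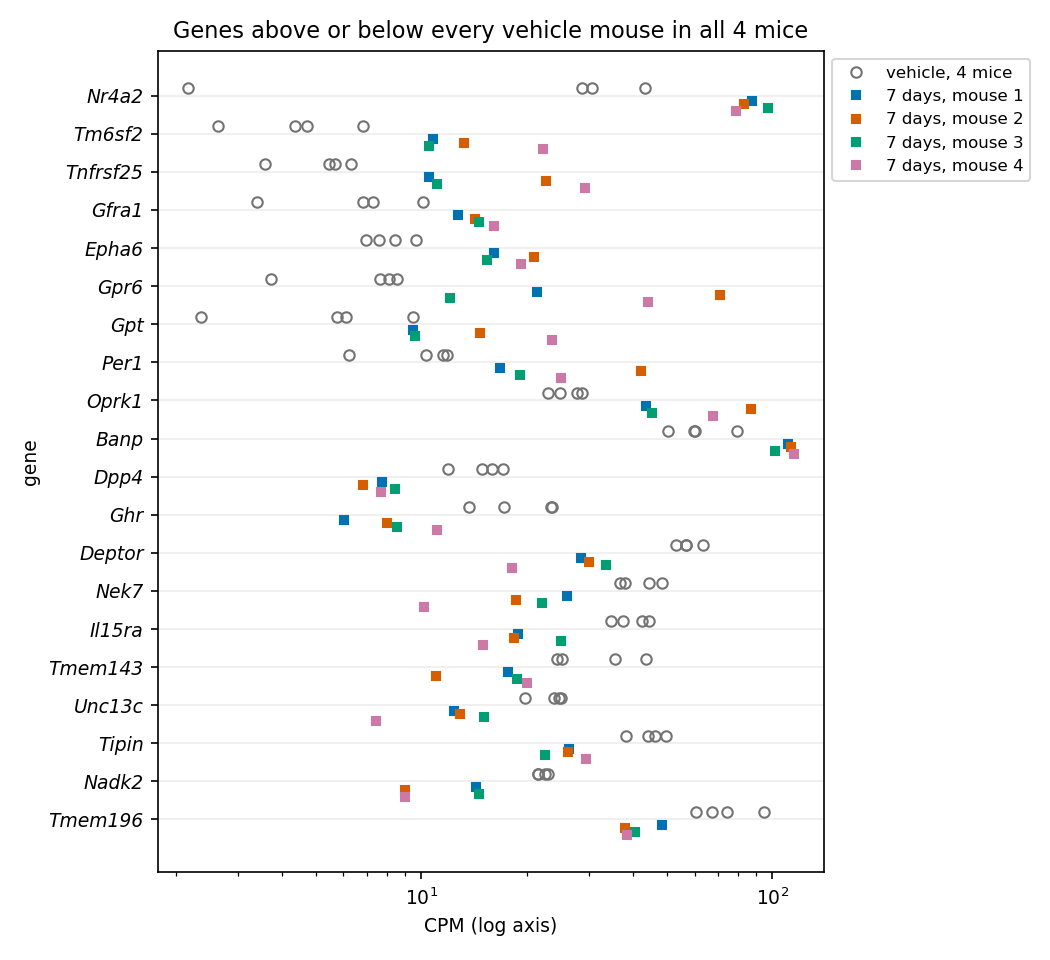
CPM on a log axis of the 10 genes named above and the 10 named below vehicle in all 4 mice, with vehicle mice as open circles and the 4 mice at 7 days as squares in a colour each. No square lies inside the range of the circles of its gene; for Gpt the gap is from 9.44 to 9.48 CPM.

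The genes named for mice 2 and 4 alone are those farthest from the vehicle mean by the naming rule. Scaf1, a factor that binds RNA polymerase II (chromosome 7, 45002948 to 45016363), was at 5.19, 6.71, 6.68 and 7.10 CPM in vehicle mice and at 5.76, 64.3, 5.25 and 81.4 CPM in mice 1 to 4 at 7 days. Znrf3 had the values given above. Tcf20, a transcriptional coregulator, was at 9.35 to 12.4 CPM and at 10.2, 94.4, 11.7 and 98.8 CPM. In all 3 genes mice 1 and 3 lay among the vehicle mice. Spry2, an inhibitor of receptor tyrosine kinase signalling to ERK, was at 8.41 to 12.6 CPM and at 8.89, 82.9, 9.22 and 97.9 CPM. Sun2, a nuclear envelope protein, was at 4.28 to 6.33 CPM and at 5.67, 41.4, 6.30 and 47.9 CPM. Coro2b, an actin-binding coronin, was at 2.74 to 6.03 CPM and at 4.91, 42.9, 4.79 and 42.3 CPM. For these 6 genes the log2 fold change against vehicle was 2.96 to 3.34 in mouse 2 and 3.15 to 3.66 in mouse 4, with edgeR adjusted p of at most 1.38e-05 in mouse 2 and 1.06e-05 in mouse 4.

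The 6 genes named on the low side of this pattern were far below vehicle in the same 2 mice. Nat14, a predicted acetyltransferase (chromosome 7, 4922028 to 4925006), was at 85.8, 57.0, 66.4 and 57.8 CPM in vehicle and at 83.9, 3.47, 68.4 and 3.64 CPM at 7 days. Tm6sf1, a relative of Tm6sf2, was at 101 to 113 CPM and at 104, 12.8, 110 and 12.3 CPM. Tmem115, a Golgi protein, was at 47.2 to 80.6 CPM and at 67.2, 7.06, 69.1 and 6.02 CPM. Again mice 1 and 3 lay among the vehicle mice. Rtkn, a GTPase effector, was at 20.1 to 31.4 CPM and at 22.3, 2.91, 22.1 and 3.64 CPM. Prmt1, the main arginine methyltransferase, was at 11.5 to 17.1 CPM and at 16.7, 2.02, 15.6 and 1.96 CPM. Gm16286 was at 27.2 to 40.6 CPM and at 29.7, 3.81, 34.2 and 2.80 CPM. The edgeR adjusted p against vehicle was at most 0.0171 in mouse 2 and 0.0112 in mouse 4 for these 6 genes.

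**Figure D4:**
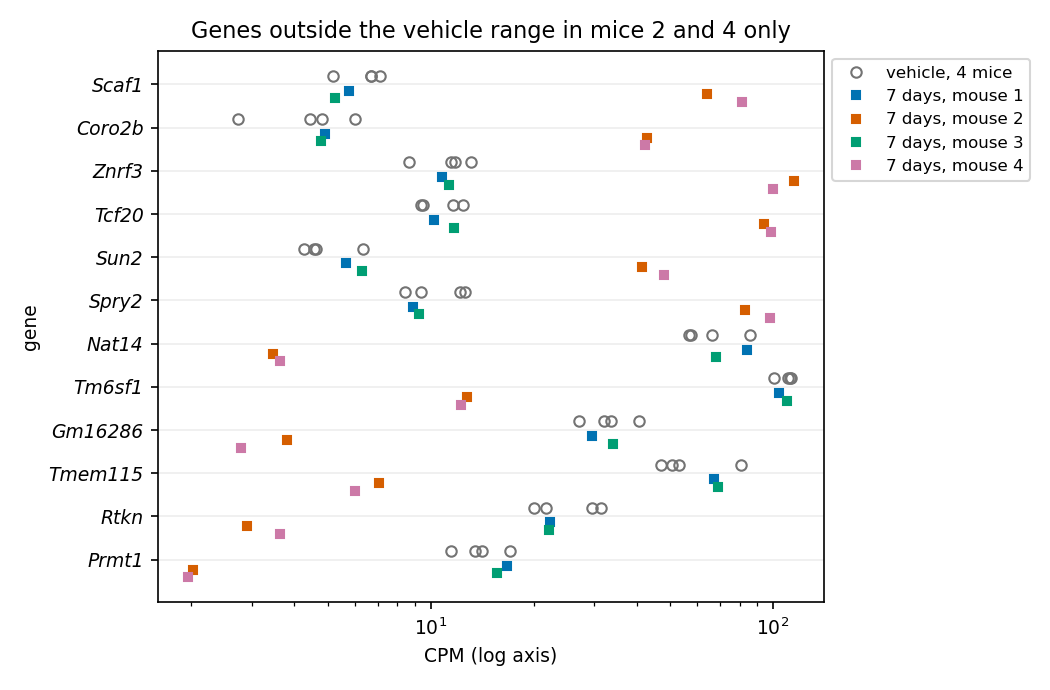
CPM on a log axis of the 6 genes named above and the 6 named below vehicle in mice 2 and 4 alone, with vehicle mice as open circles and the 4 mice at 7 days as squares in a colour each. The squares of mice 1 and 3 lie among the circles, and those of mice 2 and 4 lie far to the same side.

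By p among the 4 mice the leading 5 genes were Dagla, Clvs1, Znrf3, Tcf20 and Gm42608. Dagla, the gene of a lipase that makes the endocannabinoid 2-AG (chromosome 19, 10245265 to 10304877), was at 12.7, 11.0, 13.1 and 10.6 CPM in vehicle and at 8.30, 208, 8.52 and 161 CPM at 7 days. Mice 1 and 3 were below every vehicle mouse and mice 2 and 4 far above. It had an edgeR adjusted p among mice of 1.77e-07, with a log2 fold change against vehicle of 4.13 (SE 0.20) in mouse 2 and 3.76 (SE 0.20) in mouse 4. Clvs1, a lipid-binding clavesin of neurons, was at 12.1 to 16.6 CPM in vehicle and at 19.4, 136, 11.6 and 126 CPM at 7 days (edgeR adjusted p among mice 2.05e-05). Dagla, Clvs1 and Tcf20 overlap genes on the opposite strand, as do Coro2b, Sun2, Tm6sf1 and Rtkn above and Plin4 and Cdkn1a below. Gm42608, an unclassified feature, was at 5.80 to 7.08 CPM and at 4.74, 56.6, 5.37 and 60.6 CPM.

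By p in the group comparison the leading 5 genes were Rgs9, Gm37219, Plin4, Il15ra and Socs7, all with an edgeR adjusted p of 0.0960. Socs7, a suppressor of cytokine signalling, was at 23.0, 24.0, 26.9 and 28.9 CPM in vehicle and at 40.4, 50.2, 37.5 and 55 CPM at 7 days, with no overlap. Rgs9, which speeds the switching off of Gi and Go proteins and is dense in striatum, was at 4.78 to 8.25 CPM and at 18.6, 127, 8.99 and 126 CPM. It is above vehicle in all 4 mice but also differs among them (edgeR adjusted p 0.00457). Plin4, a lipid droplet protein, was at 0 to 0.114 CPM in vehicle, under the level of 3 counts, and at 0.339, 17.0, 0 and 16.7 CPM at 7 days. Gm37219 was likewise under 3 counts in every vehicle mouse and reached 9.19 CPM in mouse 2 and 14.6 CPM in mouse 4. Plin4 and Gm37219 did not pass the filter on low counts with only the vehicle and 7 days mice in the fit, so their p and their place among the leading 5 rest on the 24 h and 48 h mice.

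For some of the genes named above, picked as examples after their values were seen, the mice at 24 h and 48 h, which share the vehicle mice as controls, gave the following levels side by side. Dagla was at 197 to 232 CPM in the 4 mice at 24 h and at 169 to 231 CPM in the 4 at 48 h. Scaf1 was at 67.9 to 121 and at 56.1 to 136 CPM, and Znrf3 at 102 to 109 and at 98.6 to 147 CPM. Nat14 was at 3.81 to 16.7 and at 5.63 to 19.0 CPM, and Prmt1 at 1.83 to 4.91 and at 3.26 to 8.26 CPM. In these 5 genes the values of mice 2 and 4 at 7 days were nearer to those at 24 h and 48 h than to vehicle, and those of mice 1 and 3 were nearer to vehicle. Nr4a2 did not follow this, with 6.25 to 65.3 CPM at 24 h and 7.68 to 107 CPM at 48 h. Rgs9 was at 8.53 to 20.4 and at 9.85 to 40.7 CPM, below the 127 and 126 CPM of mice 2 and 4 at 7 days. Gpr6 was at 2.37 to 10.8 and at 2.08 to 22.9 CPM, below their 70.9 and 44.2 CPM. Deptor was at 27.7 to 42.1 and at 22.8 to 42.3 CPM, below vehicle at each time, and Per1 at 28.7 to 47.2 and at 23.1 to 48.4 CPM. Whether mice 2 and 4 differ from the 24 h or 48 h mice was not tested.

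Some genes left the vehicle range in a single mouse, which has no replicate. In mouse 2 alone Sall2, a zinc finger factor, was at 38.7 CPM, against 12.2 to 15.4 CPM in the other 3 mice at 7 days and 11.9 to 16.9 CPM in vehicle. In mouse 4 alone the meiotic gene Sycp2 was at 23.8 CPM, against 6.86 to 9.19 and 3.40 to 10.4 CPM, and the copper transporter gene Atp7a was at 3.22 CPM, against 10.6 to 18.1 and 7.96 to 20.5 CPM. These 3 genes were called in that mouse (edgeR adjusted p 0.0191, 0.0125 and 0.0159). In mouse 1 alone Ccn3, a secreted matricellular protein, was at 617 CPM, against 190 to 312 and 173 to 349 CPM. In mouse 3 alone Cdkn1a, the cell cycle inhibitor p21, was at 4.55 CPM, against 12.9 to 17.8 and 7.98 to 25.7 CPM, and neither was called in its mouse. Kcnn3, a calcium-activated potassium channel, lay above vehicle in mice 1, 2 and 4 and inside the range in mouse 3, at 15.9, 33.5, 6.89 and 43.7 CPM against 4.21 to 9.44 CPM.

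The sets of genes differed in kind and in level. Of all tested genes 73.7% were protein-coding in RefSeq and 15.5% had a single exon in the files. Among the genes above vehicle in all 4 mice these shares were 76.4% and 14.9%, and among those below 73.9% and 12.7%, close to all genes. Among the genes above vehicle in mice 2 and 4 alone they were 50.0% and 34.7%, and among those below 85.9% and 9.1%. The median vehicle log2 CPM was 2.31 and 5.32 in these 2 sets, against 3.94 over all genes. It was 3.65 and 4.93 in the sets above and below in all 4 mice. The part of level in these shares was not tested. Single-exon genes held 1.82% to 2.25% of the counts of vehicle mice and 1.89%, 4.06%, 1.98% and 4.23% of those of mice 1 to 4 at 7 days.

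Other measures of the libraries moved with the same 2 mice. CT010467.1, an 18S ribosomal RNA pseudogene with many near-identical copies, was at 72.3 to 110 CPM in vehicle and at 87.3, 6170, 63.4 and 4620 CPM in mice 1 to 4 at 7 days. Transcripts of the mitochondrial genome held 0.0171% to 0.0701% of the counts in vehicle and 0.0413%, 0.130%, 0.0210% and 0.114% at 7 days. The nuclear RNA Malat1 held 2.29% to 3.11% in vehicle and 1.67%, 3.42%, 2.34% and 4.24% at 7 days. Mice 2 and 4 were above every vehicle mouse in all 3 measures, and the part of these in the gene results was not tested. The labels give no preparation batch for a mouse, so the part of library preparation in the split of the 4 mice was not tested either.

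Lists of 25 pathways and 13 cell types were then read by count. Over all genes, 5.85% lay outside the vehicle range in all 4 mice, 7.31% were higher in both mice 2 and 4 and 4.13% lower in both, and a list near these shares is no result about the list. Serotonin receptors come first because they include Htr2a, the main target of DOI. Htr2a was at 122, 143, 122 and 141 CPM in vehicle and at 127, 102, 91.2 and 97.7 CPM at 7 days. Mice 2, 3 and 4 were below every vehicle mouse and mouse 1 was among them (log2 fold change -0.33, SE 0.24, edgeR adjusted p = 0.503). Htr1a, an inhibitory receptor, was the only 1 of 13 tested receptors outside the vehicle range in all 4 mice, at 17.0 to 27 CPM and at 16.2, 9.64, 15.9 and 14.0 CPM. Htr2c, at 8.19 to 14.9 CPM in vehicle and 13.8, 45.3, 8.52 and 43.0 CPM at 7 days, rose in mice 2 and 4 and differed among mice (edgeR adjusted p = 0.0400). Htr1b also rose in both, by 1.95 and 2.22 on the log2 scale, which makes 2 of 13 (15.4%).

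Of 13 tested immediate early transcription factors, Nr4a2 and Nr4a3 were above vehicle in all 4 mice and 0 were below. Nr4a3 was at 1.85 to 4.15 CPM in vehicle and at 6.35, 13.1, 4.44 and 10.6 CPM at 7 days. Nr4a1, the third member of that family, rose in mouse 2 by 2.58 and in mouse 4 by 2.66 on the log2 scale, as did Nr4a3, by 2.19 and 1.88. The median distance of the list from vehicle was 1.02, 1.08, 0.09 and 0.92 log2 units in mice 1 to 4, against -0.00 to 0.01 over all genes. Members lay on both sides, however: in mouse 2, 4 were above the vehicle range and 3 below, in mouse 3, 2 above and 3 below, and in mouse 4, 4 above and 5 below. In mouse 1, 4 were above and 0 below. The summed level overlapped, at 138 to 363 CPM in vehicle and 347, 318, 233 and 273 CPM at 7 days. Activity-regulated effectors had medians of 0.27, -0.23, -0.21 and -0.22. Of 26 of them, Nrn1, a secreted plasticity protein, was the only 1 on the same side in all 4 mice, at 15.9 to 19.4 CPM and at 9.48, 14.9, 10.2 and 10.2 CPM.

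Of 19 clock genes, Per1 and Per2 were above vehicle in all 4 mice and 0 were below. Per1 and Per3 rose in mice 2 and 4, and Cry2 and Nfil3 fell in mouse 4. Among the 12 tested genes of the glucocorticoid receptor list, Fkbp5, a co-chaperone that the receptor induces, was above vehicle in all 4 mice (7.08 to 10.5 CPM, then 13.3, 10.6, 18.1 and 14.0 CPM). Errfi1, another target, was below vehicle in all 4 (35.2 to 42.4 CPM, then 30.9, 19.3, 34.0 and 18.8 CPM). Fkbp5 had its narrowest gap in mouse 2, at 10.6 CPM.

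Of 7 metabotropic glutamate receptors, which couple glutamate to G proteins, Grm2 and Grm3 were below vehicle in all 4 mice. Grm2, a presynaptic autoreceptor, was at 132, 95.7, 90.9 and 99.3 CPM in vehicle and at 80.0, 25.0, 75.1 and 17.2 CPM at 7 days. Grm3 was at 192, 110, 131 and 115 CPM and at 94.9, 99.5, 60.4 and 88.3 CPM. Grm2 fell in mouse 2 by 2.06 and in mouse 4 by 2.60 on the log2 scale and differed among mice (edgeR adjusted p = 0.0296), while for Grm3 the adjusted p among mice was 0.797. The log2 fold change of the group was -1.08 (SE 0.41) for Grm2 and -0.67 (SE 0.30) for Grm3, with edgeR adjusted p of 0.195 and 0.267. The median distance of the 7 genes was -0.27, -0.59, -0.46 and -0.59 log2 units in mice 1 to 4.

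Other receptor and channel lists held few genes on the same side in all 4 mice. Of 16 AMPA receptor genes, the auxiliary protein gene Gsg1l was above vehicle in all 4. Of the same 16, 6 (37.5%) rose in both mice 2 and 4, among them the TARP gene Cacng8 (by 2.78 and 3.07 on the log2 scale) and the auxiliary protein gene Shisa7 (by 2.35 and 2.30). Members lay on both sides, with 9 above and 6 below every vehicle mouse in mouse 2, and 8 and 5 in mouse 4. The sum of the list was 6380 to 7510 CPM in vehicle and 6040, 5270, 6740 and 5740 CPM in mice 1 to 4 at 7 days. Of 6 NMDA receptor subunits 0 were outside in all 4, and Grin2b rose in mice 2 and 4, by 1.56 and 1.54. Of 39 potassium channel genes, 1 was above vehicle in all 4 and 2, Kcnj2 and Kcnh1, were below (7.69% together). Kcnh1 was at 85.1 to 138 CPM and at 79.2, 21.1, 69.0 and 32.5 CPM. Of 27 sodium, calcium and HCN channel genes, 1 was below vehicle in all 4 and 1 above (7.41% together), the latter being the sodium channel gene Scn8a, at 284 to 300 CPM and at 310, 616, 306 and 529 CPM.

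At the synapse, 3 of 26 scaffold and adhesion genes were above vehicle in all 4 mice, and 0 below. Dlg4, which encodes the postsynaptic scaffold PSD-95, was at 24.7 to 29.9 CPM in vehicle and at 39.5, 76.1, 31.5 and 95.0 CPM at 7 days, and it differed among mice (edgeR adjusted p = 0.0207). The neurexin gene Nrxn3 was at 343 to 386 CPM and at 429, 626, 405 and 650 CPM, and Dlgap4 was the third. In mice 2 and 4 the list moved both ways, with Nlgn1, Shank2, Dlg4 and Nrxn3 higher in both (15.4%) and Shank1 lower in both (3.85%). Vesicle genes did the same: of 29, 5 were higher in both (17.2%: Pclo, Bsn, Unc13a, Syt4 and Syt7) and 4 lower in both (13.8%: Syp, Cplx1, Stx1a and Rab3a). Rab3a, the vesicle GTPase, fell by 2.12 and 2.33 on the log2 scale, and Unc13a, a priming factor, rose by 1.40 and 1.45.

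Camk2a, the kinase subunit that is abundant at dendritic synapses, was at 151 to 222 CPM in vehicle and at 128, 1180, 164 and 1000 CPM at 7 days. It rose in mouse 2 by 2.71 and in mouse 4 by 2.48 on the log2 scale. Slc17a7, the vesicular glutamate transporter of cortical pyramidal neurons, fell in the same mice by 1.43 and 1.24. It was at 129 to 171 CPM in vehicle and at 166, 52.5, 142 and 60.0 CPM at 7 days. Both genes mark excitatory neurons, so that marker list moved both ways in these mice, and its sum, 499 to 558 CPM in vehicle and 508, 1400, 454 and 1260 CPM at 7 days, was carried by Camk2a.

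Cytosolic ribosomal protein genes were the longest list, with 65 tested. In mouse 2, 34 rose and 0 fell, and in mouse 4, 23 rose and 0 fell, 22 of them (33.8% of the list) in both, while over all genes 9.74% rose in mouse 2 and 11.7% in mouse 4. The median distance was 0.18, 0.99, -0.04 and 0.80 log2 units in mice 1 to 4. Of the 65, 7 were above vehicle in all 4 mice (Rpl31, Rps21, Rpl34, Rpl22, Rpl6, Rplp2 and Rps2), or 10.8% against 5.85% of all genes in either direction. Rpl6 was nearly level over the treated mice, at 72.7 to 89.6 CPM in vehicle and 109, 104, 108 and 92.8 CPM at 7 days. Rps21 was not, at 11.6 to 14.2 CPM and at 18, 32.8, 14.4 and 37.2 CPM. Genes of this family have many processed copies, which makes their counts uncertain. Of 52 nuclear genes for oxidative phosphorylation 0 were on the same side in all 4 mice.

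Chromatin and RNA-processing lists had members on both sides. Of 31 histone acetylation and H3K27 regulators, the deacetylase genes Hdac4 and Hdac11 and the bromodomain gene Brd3 were above vehicle in all 4 mice and Hdac9 below. Hdac9 was at 54.8 to 74.7 CPM in vehicle and at 52.4, 51.9, 45 and 52.5 CPM at 7 days. Kat6b, an acetyltransferase, rose in mouse 2 by 2.44 and in mouse 4 by 2.73 on the log2 scale, and Kat7, another, fell by 1.29 and 1.31, among 4 members higher in both (12.9%) and 2 lower in both (6.45%). Of 38 SR and hnRNP splicing factors, 3 were higher in both of these mice (Celf2, Hnrnpr and Tra2b) and 3 lower in both (Hnrnph2, Srsf5 and Srsf7), 7.89% each, where the share higher is near that of all genes. Among 13 long noncoding RNAs, 5 rose in both (38.5%: Snhg14, Kcnq1ot1, Meg3, Rian and Mirg) and 0 fell.

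Markers of other neurons moved with some mice. Of 11 tested markers of striatal projection neurons, the main output cells of the striatum, Gpr6, Drd2 and Rgs9 were above vehicle in all 4 mice. In mouse 2, 8 rose, in mouse 4, 7 rose, and 0 fell in either, with 7 (63.6%) higher in both. Pdyn, the dynorphin precursor, lay the other way in these mice, at 72.5 and 54.7 CPM against 88.4 to 134 CPM in vehicle, and was not called. The summed level of the list was 479 to 614 CPM in vehicle and 854, 2230, 573 and 1650 CPM in mice 1 to 4 at 7 days. Penk, the enkephalin precursor, was at 102 to 237 CPM and at 332, 941, 186 and 570 CPM. Drd2, the dopamine receptor of the indirect pathway, was at 0.0944 to 0.973 CPM, in vehicle mouse 1 under the level of 3 counts, and at 3.05, 15.5, 1.98 and 6.16 CPM. Adora2a, which marks the same cells, did not pass the filter, with 0 counts in 3 of 4 vehicle mice and at 7 days 0 counts in mice 1 and 3, 6.39 CPM in mouse 2 and 1.96 CPM in mouse 4. In sum, mice 1, 2 and 4 were above every vehicle mouse and mouse 3 was among them, and the part of this in the values of Gpr6 and Rgs9 was not tested. In such pooled nuclei more cells of a type and more RNA per cell cannot be told apart.

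Of 5 markers of claustral and insular neurons, Nr4a2, Gnb4 and Oprk1 were above vehicle in all 4 mice and Synpr and Ntng2 were not. Gnb4, a G protein subunit, was at 69.1 to 85.2 CPM in vehicle and at 116, 128, 139 and 96.3 CPM at 7 days. The sum of the list was 529 to 894 CPM in vehicle and 877, 701, 775 and 548 CPM at 7 days, so the groups overlapped, and Synpr made up most of it. The part of such neurons in the Nr4a2 values was not tested. Upper-layer markers summed to 797 to 905 CPM and 791 to 857 CPM, and interneuron markers to 1700 to 3310 CPM and 2510, 3420, 1830 and 3150 CPM. The 10 interneuron markers were split, with 5 above and 4 below every vehicle mouse in mouse 2 and 4 above and 3 below in mouse 4. The neuropeptide genes Sst, at 333 to 934 CPM in vehicle and 784, 1250, 538 and 983 CPM at 7 days, and Vip, at 267 to 764 CPM and 352, 908, 258 and 1010 CPM, were above vehicle in mice 2 and 4. Gad1 and Gad2, which make GABA in all interneurons, lay below every vehicle mouse in mice 2, 3 and 4, at 393, 418 and 433 CPM against 529 to 706 CPM and at 215, 163 and 178 CPM against 217 to 303 CPM. The part of interneurons in the results was not tested. Microglial markers summed to 89.9 to 127 CPM in vehicle and to 149, 75.4, 136 and 60.6 CPM at 7 days, where mice 2 and 4 were below and mice 1 and 3 above every vehicle mouse.

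**Figure D5:**
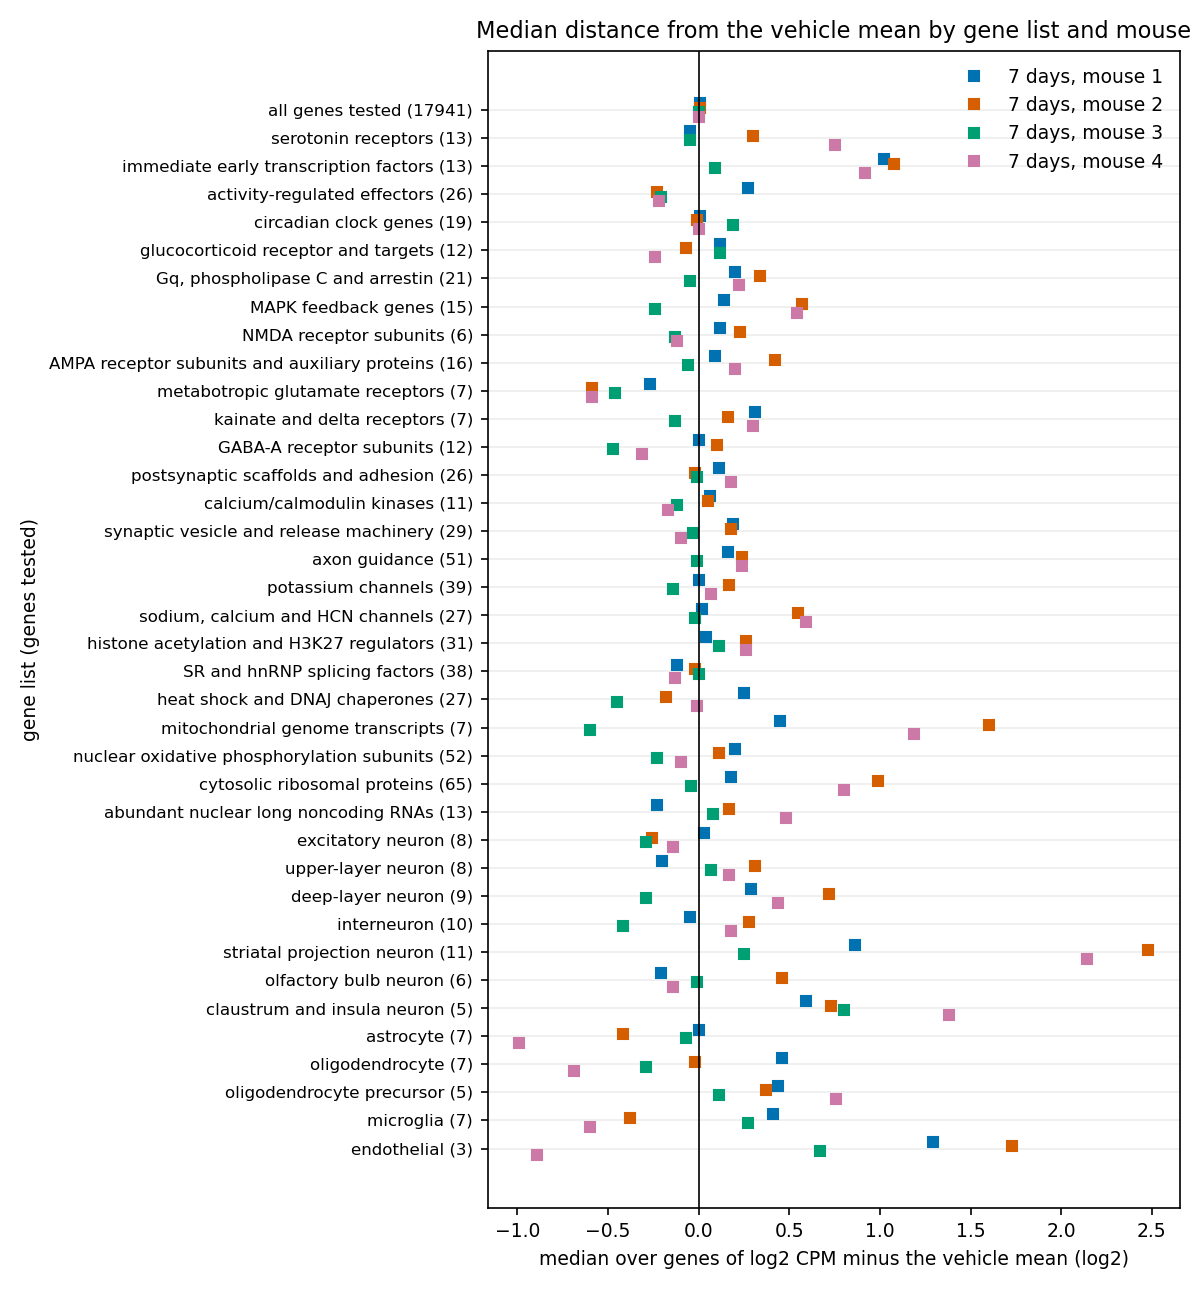
Median over the genes of each list of log2 CPM minus the vehicle mean (horizontal axis, log2 units), with a square for each mouse at 7 days and the number of genes tested in brackets. Striatal projection neuron markers reach 2.48 in mouse 2 and 2.14 in mouse 4, cytosolic ribosomal proteins 0.99 and 0.80, and the medians over all genes lie within -0.00 to 0.01.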

How the data were processed

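RNA of NeuN-sorted nuclei had been made into libraries with SMART-seq2 and Nextera XT, per the labels. Whole-number counts per gene were deposited by the authors, made with featureCounts 2.0.0 over exons of a GRCm38 annotation with no strand option, per the file headers. The submitters' processing notes name Trim Galore 0.6.5 and mm10, and the aligner of the RNA reads is not given in the sources used here. The design text states more mice per group than the 4 per group with RNA used here.

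The 2 libraries of a mouse were summed. Of 55401 gene IDs, 55141 (99.5%) were matched to a symbol, and 17941 passed edgeR's filterByExpr. edgeR 4.0.16 (R 4.3.3) fitted all 16 RNA mice in 4 groups, with TMM factors, glmQLFit and glmQLFTest, and Benjamini-Hochberg adjusted p below 0.05 was the threshold. A second fit gave each mouse at 7 days its own level, with the spread from the other 12 mice. It gave the tests of single mice, of the 6 pairs and of the difference among mice. A further fit took libraries as units within a group. CPM used TMM factors, log2 CPM a prior count of 2, and a mouse was outside the vehicle range when above or below all 4 vehicle mice. DESeq2 1.42.0 and limma 3.58.1 were alternatives, with other scalings, filters, single libraries and mice left out. The procedures were tested on simulated data, where the criterion for a single mouse was relaxed after its first run because few changes were recovered in 1 mouse.

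Genes were named by rule. These are the 10 protein-coding genes per direction, with mean log2 CPM of at least 3, whose nearest mouse was farthest from the vehicle mean when all 4 were outside. For the most frequent other set of mice 6 per direction were taken, for other sets 1, for single mice 2 (examples are printed), and also the 5 with the smallest p in each of the 2 tests, Htr2a and list members. The members and lists were chosen with earlier results of these data known. Promoters are RefSeq's for GRCm38.p6, in the table used here. Some list members are not reported here.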

Additional observations from a re-analysis of the deposited data

Results flagged for a closer look

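In 7 of 190 groups of 4 mice the highest or lowest mouse stood apart from the other 3, where chance alone gives about 9.5. Many of these groups are of genes named by their values, for which that chance figure does not hold. The markers of upper-layer neurons summed to 791 CPM in mouse 4 at 7 days, the lowest of its group, and those of deep-layer neurons to 272 CPM in mouse 3, against 471 CPM or more in the others. The microglial markers summed to 89.9 CPM in vehicle mouse 1, the lowest of its group. Sun2 was highest in vehicle mouse 1, at 6.33 CPM, and Tm6sf1 was lowest in vehicle mouse 4, at 101 CPM. Sycp2 stood at 23.8 CPM in mouse 4 at 7 days and Sall2 at 38.7 CPM in mouse 2, each above the rest of its group. Both were named for leaving the vehicle range in that mouse alone, so these 2 flags follow from the choice.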

How the results depend on the processing

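The count of 0 genes called in the group comparison became 958 with no filter on low counts, 796 in DESeq2 and 236 at an adjusted p below 0.1. Of the 958, 906 are genes that the filter keeps, and of the 796, 234 are without overlap. It ranged from 0 to 1342 when 1 mouse was left out, with 1342 without mouse 1 and 1160 without mouse 3 at 7 days and 0 in the other 6 cases. The 1050 genes without overlap became 204 with a gap of at least 1.2-fold and 1308 to 2981 with 1 mouse left out. With no filter mouse 1 had 15 genes called and mouse 3 had 5, and DESeq2 called 3 in mouse 1. With only the 8 vehicle and 7 days mice in the fit, mouse 2 had 4518 genes called, mouse 4 had 5356 and 3527 differed among mice. DESeq2's likelihood ratio test gave 3268 for the last, and leaving out a mouse at 7 days gave 977 to 1518. The cause of these shifts was not tested, except that fewer mice leave less to overlap. Thinning all mice to 5834248 counts, chosen after seeing the data, gave 0 genes in the group comparison, 959 without overlap, 2648 in mouse 2, 3551 in mouse 4 and 1778 among mice.

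Same-numbered vehicle and 7 days mice had correlations of 0.244, -0.112, -0.146 and 0.174, against -0.225 to 0.188 for pairs of different number. With 4 mice in a group these values cannot settle whether mouse numbers pair the groups. A fit with the mouse number as a block also called 0 genes. Of the log2 fold changes of named genes under the alternatives, 1278 kept direction and side of the threshold, 115 passed it and 11 changed sign. The changes of sign were in genes that left the range in a single mouse. Cdkn1a was at 0.0517 in library 1 alone and 0.0577 in voom, with -0.338 to 0.338 over mice left out, and Lipa at 0.0349 in library 1 and -0.271 to 0.181. Ccn3 ranged from -0.0237 to 0.648, Naa11 from -0.407 to 0.0542, Sall2 from -0.0366 to 0.677 and Ccdc171 from -0.386 to 0.0821. Depth limits genes near 3 counts.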
